A study of Mus musculus with 3 samples.

Results

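The genes that modify, chaperone and trim procollagen were followed in single-cell RNA sequencing of the mouse embryonic thymus. The set held 10 of the 27998 genes counted, chosen by name: the lysyl hydroxylases Plod1, Plod2 and Plod3, the prolyl 4-hydroxylase subunits P4ha1, P4ha2 and P4hb, the collagen chaperone Serpinh1, the procollagen proteinases Adamts2 and Bmp1, and the proteinase enhancer Pcolce. All 10 had UMIs in the 4 cell classes compared. Thymic lobes of C57BL/6 embryos of embryonic day 13 to 13.5 were dispersed with trypsin, and 3 libraries of 3′ gene expression were made, 1 for each genotype. The control library came from wild-type embryos, which the study's text gives as Tbx1+/+. The other libraries came from Tbx1neo2/neo2 embryos, which carry a neomycin cassette in an intron of both Tbx1 alleles and have small thymic lobes, and from Foxn11089/1089 embryos, which carry a small deletion in both alleles of Foxn1, a transcription factor gene that thymic epithelial cells need, and whose lobes are also hypoplastic. How many embryos went into a library is not given in the sources used here. With 1 library for each genotype, no difference between genotypes had a replicate check, no test was run, and every interval below is an exact 95% interval that covers counting error only.

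Fibrillar collagen is made as procollagen chains in the endoplasmic reticulum. There, prolyl 4-hydroxylase, a tetramer of catalytic alpha subunits (P4ha1, P4ha2) and the protein disulfide isomerase P4hb, makes the hydroxyproline that keeps the triple helix stable, and lysyl hydroxylases make the hydroxylysine on which glycosylation and mature crosslinks depend. Serpinh1, also called Hsp47, binds the folded helix until it leaves for the Golgi. Outside the cell Adamts2 removes the N-propeptide, Bmp1 removes the C-propeptide and also activates the lysyl oxidase Lox, and Pcolce binds the C-propeptide and speeds its removal by Bmp1. In the thymus, the fibroblasts of the capsule and septa, which derive largely from the neural crest, are the main known makers of this matrix.

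The libraries held 6410, 5759 and 12447 barcodes and 82936619, 137498422 and 204655055 UMIs (control, Tbx1neo2/neo2, Foxn11089/1089), of which 5932, 5516 and 11772 barcodes passed the filters. Tbx1 had 114 UMIs (1.39 CPM, counts per 1000000 UMIs of the cells summed) in the control, 656 (4.81 CPM) in the library labelled Tbx1neo2/neo2 and 1102 (5.43 CPM) in the Foxn11089/1089 library, so Tbx1 UMIs did not set the Tbx1neo2/neo2 library below the control, and it is called the library labelled Tbx1neo2/neo2 throughout. Foxn1 had 3144, 4726 and 15525 UMIs. A 3′ tag need not report the function of a mutant allele. These sums ran over all kept cells, and the make-up of the libraries differed. Skeletal muscle cells numbered 4, 97 and 77 and neural cells 17, 101 and 19. The study states that Tbx1 is not expressed in the embryonic thymus. The Tbx1 counts therefore cannot check the genotype label. The 4 classes were built from clusters that raised fixed markers. With cells gated on marker UMIs instead, 55 of 120 levels by gene, class and library moved past their interval, and 22.8%, 39.3% and 23.9% of the gated mural cells lay in the mural-like class. Fibroblast-like cells (1328, 1609 and 3040 in the 3 libraries) held Pdgfra at 193, 277 and 266 CPM, and mural-like cells (17, 193 and 41) held Acta2 and Rgs5. Endothelial-like cells numbered 50, 98 and 120 and epithelial-like cells 2037, 804 and 3570. Clusters that reached no name held 645, 1803 and 2340 cells (10.9%, 32.7% and 19.9% of the kept cells). Pairs of libraries shared 17 to 28 barcodes. In RBCs, which should lack these genes, no member exceeded 7.45 CPM. Hemoglobin and other RBC markers summed to 1777, 313 and 6433 CPM in the fibroblast-like cells, and mitochondrial transcripts took 2.86%, 6.40% and 5.74% of their UMIs. The part of these differences in the results was not tested. Differences in depth were also large, with median UMIs per fibroblast-like cell of 9613.5, 23924 and 13852.5.

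The promoters of P4ha2 and Pcolce are shown because these were the genes past 1.5-fold in 1 direction in both genotype comparisons of fibroblast-like cells, P4ha2 higher and Pcolce lower. Each runs from 250 bases before to 50 bases after the RefSeq start (GRCm38.p6), 5′ to 3′ on the strand of the gene, with matches to ACGTG, the core that hypoxia-inducible factors bind, to GGGCGG (GC box) and to CCAAT in capitals on either strand. RefSeq promoters were matched for 8 members; Plod2 and Bmp1 had no entry.
P4ha2, chr11:54100674-54100973, plus strand: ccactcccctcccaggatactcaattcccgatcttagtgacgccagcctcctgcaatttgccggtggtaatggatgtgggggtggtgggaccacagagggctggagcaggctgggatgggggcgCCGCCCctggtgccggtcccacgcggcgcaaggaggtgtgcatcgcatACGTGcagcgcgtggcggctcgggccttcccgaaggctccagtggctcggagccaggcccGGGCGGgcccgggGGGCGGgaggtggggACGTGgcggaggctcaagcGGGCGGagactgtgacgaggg
Pcolce, chr5:137611355-137611654, minus strand: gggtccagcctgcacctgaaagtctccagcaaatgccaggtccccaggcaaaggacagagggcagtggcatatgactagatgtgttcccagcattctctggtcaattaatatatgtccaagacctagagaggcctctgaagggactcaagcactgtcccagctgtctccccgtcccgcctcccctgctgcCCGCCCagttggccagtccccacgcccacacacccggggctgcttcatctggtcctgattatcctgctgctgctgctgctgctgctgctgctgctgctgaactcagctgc
The P4ha2 window held 2 matches to ACGTG and 4 to GGGCGG, and the Pcolce window held none and 1. ACGTG was present in the windows of 5 of the 8 matched members (Plod3, P4ha1, P4ha2, P4hb and Serpinh1) and in 19.6% of all 32851 promoters, and GGGCGG in 7 of 8 and in 35.7%. CCAAT matched in Plod3 and P4hb (37.4% of all promoters). The heat shock element core GAANNTTC, not marked in the sequences, matched in Plod1 and Adamts2 (7.86%). A match describes letters in this window only.

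Most members were higher in fibroblast-like cells than in epithelial-like or endothelial-like cells. Fibroblast-like cells were higher than epithelial-like cells in all 3 libraries for 9 members, all but P4ha1, where 35.2% of all genes tested had that order, and by at least 2-fold for 6 members (Plod1, Plod2, Serpinh1, Pcolce, Adamts2 and Bmp1), against 11.9% of all genes. Against endothelial-like cells they were higher in all 3 libraries for 8 members (41.4% of all genes) and by at least 2-fold for 4 (Plod2, P4ha2, Pcolce and Adamts2; 15.9%), P4ha2 in the control against the floor that 3 UMIs would give. No member was higher in epithelial-like than in fibroblast-like cells in all 3 libraries (37.2% of all genes, 11.8% by at least 2-fold), and none was higher in endothelial-like cells by at least 2-fold (7.39%). Plod2 and Bmp1 were higher in fibroblast-like than in mural-like cells in all 3 libraries (34.9%), neither by 2-fold in each (8.54%). These levels are CPM of summed UMIs, which count 3′ tags and carry no correction for length. Epithelial-like values of the library labelled Tbx1neo2/neo2 include 13 cells that went against their class, and they are given without those cells further on.

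Among the lysyl hydroxylases, Plod2, the enzyme that hydroxylates the telopeptide lysines, was higher in fibroblast-like cells than in the other classes of each library. Its level there was 112 CPM in the control, 129.8 in the library labelled Tbx1neo2/neo2 and 102 in the Foxn11089/1089 library. In endothelial-like cells it was 9.71, 23.0 and 14.3 CPM, so that fibroblast-like cells were higher by 11.5-fold (5.83 to 26.7), 5.64-fold (4.55 to 7.06) and 7.13-fold (5.75 to 8.94). Mural-like cells had 30.3, 78.7 and 62.0 CPM and epithelial-like cells 33.9, 53.4 and 36.7 CPM of Plod2. Plod1, which acts mainly on lysines within the helix, had the opposite order between these classes. It was at 57.0, 99.1 and 33.5 CPM in endothelial-like cells against 38.9, 41.4 and 24.4 in fibroblast-like cells, a ratio of 1.47 (1.06 to 1.98), 2.39 (2.13 to 2.68) and 1.38 (1.18 to 1.60), and only 5.21, 7.11 and 5.83 CPM in epithelial-like cells. Endothelial above fibroblast in all 3 libraries was the order of Plod1 and Plod3 among the members and of 24.9% of all genes. Plod3, which also has glycosyltransferase activity, had fibroblast-like over epithelial-like ratios of 1.85 (1.62 to 2.10), 1.64 (1.51 to 1.77) and 1.15 (1.07 to 1.24). Its endothelial-like over fibroblast-like ratios were 1.19 (0.80 to 1.73), 1.35 (1.16 to 1.56) and 1.25 (1.06 to 1.46), the first with an interval that held 1.

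The catalytic prolyl hydroxylase subunits also had unlike class patterns. P4ha1 stayed within 39.8 to 68.5 CPM in all 12 combinations of 4 classes and 3 libraries. P4ha2 had 24.2, 37.4 and 41.6 CPM in fibroblast-like cells, 25.2, 39.0 and 31.0 in mural-like cells and 16.5, 35.8 and 23.3 in epithelial-like cells, but in endothelial-like cells it had 0 UMIs in the control, 17.1 CPM in the library labelled Tbx1neo2/neo2 and 5.73 CPM in the Foxn11089/1089 library. The interval for the 0 UMIs of the 50 control cells reached 4.48 CPM, and the floor of 3 UMIs was 3.64 CPM. P4hb, a general disulfide isomerase as well as a prolyl hydroxylase subunit, was high outside the stroma too, with 174, 158 and 119 CPM in hematopoietic cells against 345, 275 and 210.4 in fibroblast-like cells.

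Serpinh1 was the member with the most UMIs in each of the 4 classes. It stood at 1339.6, 1304 and 1068 CPM in fibroblast-like cells, 1059.7, 1218 and 1362 in mural-like cells and 971, 946 and 892 in endothelial-like cells. Epithelial-like cells had 259.6, 444 and 297 CPM. The endothelial level was therefore close to that of fibroblasts (ratio 0.72, 0.73 and 0.84), although the collagen genes Col1a1, Col1a2 and Col3a1 were at 9.71, 7.28 and 13.3 CPM in control endothelial-like cells and at 2085, 861 and 2163 CPM in control fibroblast-like cells. Endothelial-like cells had 45.0, 46.6 and 87.9 CPM of them in the library labelled Tbx1neo2/neo2 and 63.7, 62.5 and 126 CPM in the Foxn11089/1089 library. Col5a2 was at 19.4, 440.3 and 51.7 CPM in endothelial-like cells against 315, 369.8 and 308 in fibroblast-like cells.

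The propeptide genes differed between classes in different ways. Pcolce was at 225, 126 and 95.9 CPM in fibroblast-like cells and at 267, 126 and 266 in mural-like cells, and it did not exceed 18.1 CPM in endothelial-like or epithelial-like cells. Adamts2 was highest in mural-like cells, with 75.7, 119.8 and 50.3 CPM against 18.1, 38.8 and 20.5 in fibroblast-like cells. That ratio was 4.17 (2.30 to 7.02), 3.08 (2.84 to 3.35) and 2.45 (1.73 to 3.38), and a mural level at least 2-fold above fibroblasts in all 3 libraries was found for 2.25% of all genes. In endothelial-like cells Adamts2 had 1, 1 and 7 UMIs. Bmp1 was at 39.5, 56.6 and 36.8 CPM in fibroblast-like cells and at 7.17, 15.3 and 14.2 in epithelial-like cells. In endothelial-like cells it was at 6.07, 46.9 and 18.4 CPM, so the fibroblast-like over endothelial-like ratio was 6.51 (2.77 to 20.1) in the control and 1.21 (1.04 to 1.42) in the library labelled Tbx1neo2/neo2. The control mural values rest on 17 cells and on 3 to 15 UMIs for 7 of the 10 members.

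**Figure D1:**
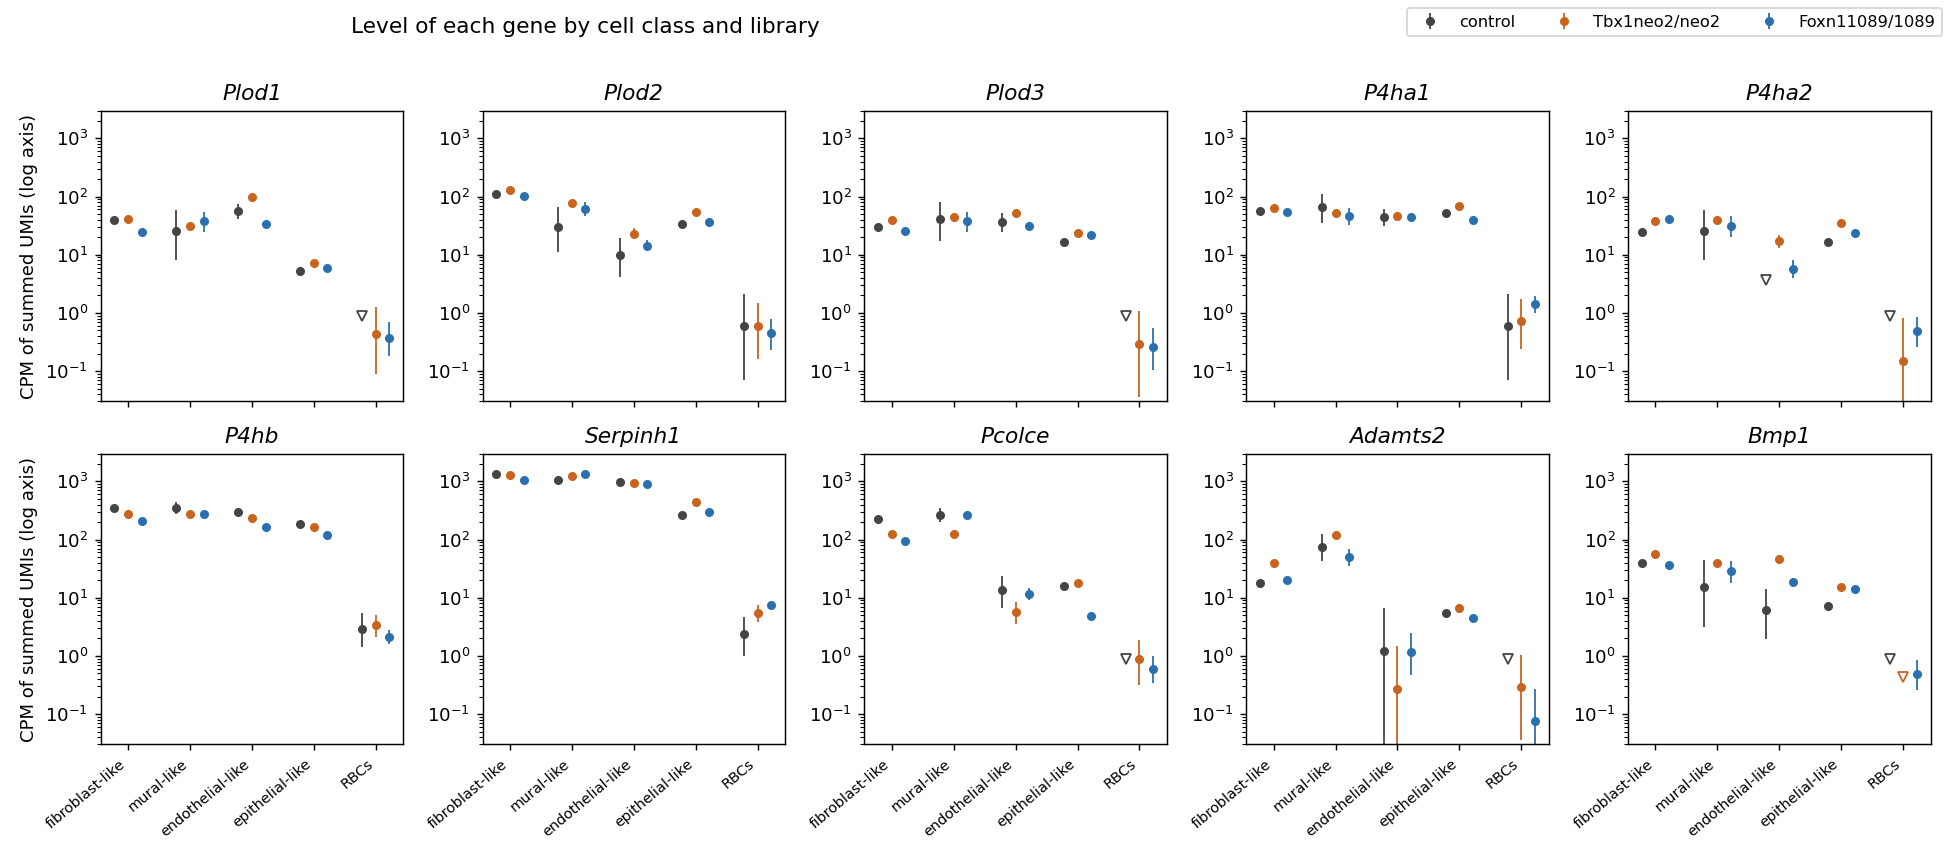
Level of each of the 10 genes as CPM of summed UMIs (log axis) in 4 cell classes and in RBCs, with 1 point per library and exact 95% Poisson intervals; open triangles mark the floor of 3 UMIs where a library had 0. Serpinh1 and P4hb lie highest in every class, Plod2, Pcolce and Adamts2 drop in endothelial-like cells, Plod1 drops in epithelial-like cells, and RBCs stay at or below 7.45 CPM.

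The comparison of genotypes in fibroblast-like cells asks which collagen-processing genes differ in the mesenchyme of hypoplastic lobes. Pcolce was lower in both compared libraries, P4ha2 was higher in both, Adamts2 was higher in the library labelled Tbx1neo2/neo2 and Plod1 and P4hb were lower in the Foxn11089/1089 library, each past 1.5-fold. These calls were 2 higher and 1 lower of 10 members in the library labelled Tbx1neo2/neo2, against 39.6% and 9.59% of 13685 genes tested, and 1 higher and 3 lower in the Foxn11089/1089 library, against 21.9% and 9.96% of 13380. The median log2 ratio of the members was 0.20 and -0.20, whereas that of all genes tested was 0.41 and 0.20, so 7 and 9 of the 10 members lay below the median gene. Scaling by the median ratio in place of total UMIs moved the median of the genes with UMIs in both libraries from 0.42 to 0.05 and from 0.21 to 0.01, and the members with it, so that the Foxn11089/1089 ratio of Adamts2 turned to -0.02. Against the median gene, 1 member was higher and 2 were lower by 1.5-fold in the library labelled Tbx1neo2/neo2 (18.9% and 21.7% of all genes), and 0 and 3 in the Foxn11089/1089 library (12.0% and 15.5%). Both comparisons share the control library.

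Pcolce had 3027 UMIs (225 CPM, 217 to 233) in the control, 5180 (126 CPM, 123 to 129.7) in the library labelled Tbx1neo2/neo2 and 4411 (95.9 CPM, 93.1 to 98.8) in the Foxn11089/1089 library. Control fibroblast-like cells were highest, and the 3 intervals did not overlap. The log2 ratio to the control was -0.83 (-0.90 to -0.77) and -1.23 (-1.30 to -1.16). At an equal depth of 2000 UMIs per cell, 33.9% (31.3 to 36.5) of control fibroblast-like cells held a Pcolce UMI, against 18.3% (16.4 to 20.3) and 16.0% (14.7 to 17.4). Without thinning the shares were 78.5%, 67.9% and 61.5%, and thinning left out 23, 21 and 5 cells. Among thinned RBCs 0 of 328, 1 of 357 and 2 of 2003 cells held one. In the first of these the floor of 3 cells was a share of 0.915%. Pcolce (chromosome 5, 137605103 to 137613784, minus strand) overlaps Fbxo24 on the same strand, which had 1 UMI.

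Neither proteinase gene was lower by 1.5-fold in either library. Control cells held Adamts2 at 18.1 CPM (15.9 to 20.6), against 38.8 (36.9 to 40.8) in the library labelled Tbx1neo2/neo2 and 20.5 (19.2 to 21.9) in the Foxn11089/1089 library. Its log2 ratio was 1.10 (0.90 to 1.30) in the former and 0.18 (-0.03 to 0.39) in the latter, where the interval held 0. Thinned to 2000 UMIs, 3.14%, 7.43% and 4.48% of cells held an Adamts2 UMI. Bmp1 stood at 39.5, 56.6 and 36.8 CPM; its log2 ratios, 0.52 (0.38 to 0.66) and -0.10 (-0.24 to 0.04), stayed short of 1.5-fold.

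The prolyl hydroxylase subunits did not share a direction. P4ha2 had 326 UMIs (24.2 CPM, 21.7 to 27.0) in the control, 1533 (37.4 CPM, 35.5 to 39.3) in the library labelled Tbx1neo2/neo2 and 1911 (41.6 CPM, 39.7 to 43.5) in the Foxn11089/1089 library. Both intervals lay above that of the control, with log2 ratios of 0.62 (0.45 to 0.80) and 0.78 (0.61 to 0.95), the first of which was 0.26 under median-ratio scaling. P4ha1, the subunit that most cells use, had 55.7, 63.6 and 54.2 CPM and log2 ratios of 0.19 (0.07 to 0.31) and -0.04 (-0.16 to 0.08); the first turned to -0.18 under median-ratio scaling. P4hb, by contrast, was at 345 CPM (335 to 355) in the control, 275 (269.7 to 279.9) and 210.4 (206 to 215), with log2 ratios of -0.33 (-0.38 to -0.28) and -0.71 (-0.77 to -0.66). The P4hb ratio was below 0 in the other classes as well, at -0.39 and -0.37 in mural-like, -0.36 and -0.90 in endothelial-like and -0.21 and -0.65 in epithelial-like cells, and at -0.14 and -0.55 in hematopoietic cells. The mural interval of the Foxn11089/1089 library held 0 (-0.76 to 0.04), and the epithelial ratio of -0.21 was -0.31 without the 13 cells.

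Of the lysyl hydroxylases, Plod1 in the Foxn11089/1089 library was past 1.5-fold. Plod1 had 38.9, 41.4 and 24.4 CPM, and its log2 ratio was 0.09 (-0.05 to 0.24) in the library labelled Tbx1neo2/neo2 and -0.67 (-0.82 to -0.52) in the Foxn11089/1089 library. Plod2 had ratios of 0.22 (0.13 to 0.30) and -0.13 (-0.21 to -0.05) and Plod3 of 0.35 (0.20 to 0.51) and -0.26 (-0.43 to -0.10). Under median-ratio scaling the 3 ratios of the library labelled Tbx1neo2/neo2 turned negative, to -0.28, -0.15 and -0.01. Plod3 overlaps Znhit1 on the opposite strand. Serpinh1 was at 1339.6, 1304 and 1068 CPM, log2 ratios of -0.04 (-0.06 to -0.01) and -0.33 (-0.35 to -0.30).

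**Figure D2:**
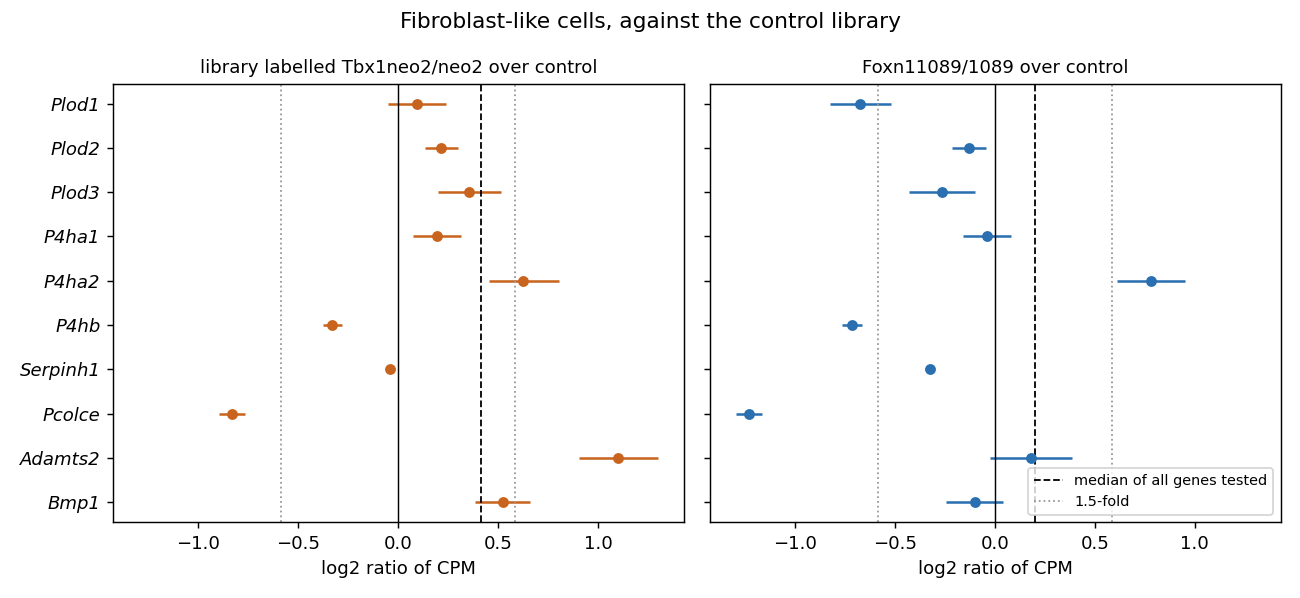
Log2 ratio of CPM over the control library for each gene in fibroblast-like cells, with exact 95% counting intervals, in the library labelled Tbx1neo2/neo2 (left) and the Foxn11089/1089 library (right). The dashed line is the median of all genes tested (0.41 and 0.20) and dotted lines mark 1.5-fold; 7 and 9 of the 10 genes lie left of the dashed line.

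The fibroblast-like cells fell into 5 clusters, and the genotype differences were compared within each. The largest, cluster 2 (1812 cells), was led by Sfrp2, cluster 5 was cycling, cluster 6 was led by Ndufa4l2, cluster 11 by Cxcl13 and Hoxa5 and cluster 16 by Agtr2. Cluster 11 also raised 3 chondrogenic markers, more than the other fibroblast-like clusters, and the library labelled Tbx1neo2/neo2 gave 547 of its 1004 cells. The epithelial clusters 1 and 32 raised 3 as well, so that count was not particular to cluster 11. Pcolce was below the control in 5 of 5 clusters of both libraries, with log2 ratios between -1.97 and -0.02 for the library labelled Tbx1neo2/neo2 and between -1.42 and -0.90 for the Foxn11089/1089 library. In cluster 2 of the former it was level with the control, at 188 against 189.7 CPM, and in cluster 11 it was 97.8 against 315 CPM. P4hb was lower in 5 of 5 clusters of both libraries, and Plod1 and Serpinh1 in 5 of 5 of the Foxn11089/1089 library. A lower value in every cluster was found for 11.2% of all genes in the library labelled Tbx1neo2/neo2 and 11.7% in the Foxn11089/1089 library. The intervals of Pcolce in cluster 2 and P4hb in cluster 16 of the former and of Plod1 in cluster 16 of the latter held 0. Plod3 and Bmp1 were above the control in 5 of 5 clusters of the library labelled Tbx1neo2/neo2, as were 37.7% of all genes, but the interval held 0 for Plod3 in clusters 5, 11 and 16 and for Bmp1 in clusters 11 and 16. No member was above the control in every cluster of the Foxn11089/1089 library (30.9% of all genes).

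P4ha2 and Adamts2 were less even. P4ha2 was higher in clusters 2, 5 and 6 of both libraries. In cluster 11 its log2 ratios of 0.44 and 0.12 had intervals that held 0. In cluster 16 the control had 13 UMIs (49.9 CPM, against 26.0 and 22.7), and the ratio was -0.94 (-1.79 to 0.02) and -1.14 (-2.16 to -0.05). Adamts2 in the library labelled Tbx1neo2/neo2 was higher in 4 of 5 clusters, by up to 1.85 in log2 in cluster 16 (26.9 to 96.9 CPM, 7 control UMIs), and lower in cluster 11, by 0.55. Plod2, nearly equal in the pooled cells, was 53.9 CPM in cluster 16 of the library labelled Tbx1neo2/neo2 against 177 in the control and 159.9 in the Foxn11089/1089 library, on 46 control UMIs.

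**Figure D3:**
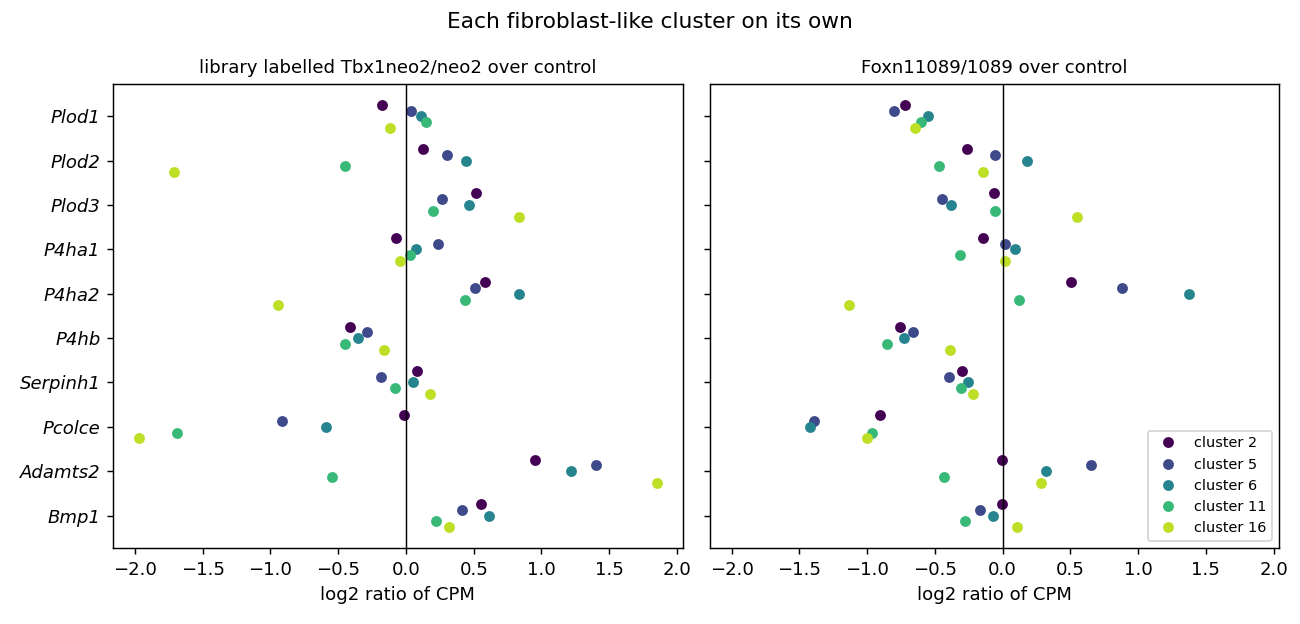
Log2 ratio of CPM over the control within each of the 5 fibroblast-like clusters (colours), for the library labelled Tbx1neo2/neo2 (left) and the Foxn11089/1089 library (right). All 5 points of Pcolce and of P4hb lie below 0 in both panels. Cluster 16 is lowest for P4ha2 in both panels and for Plod2 in the left panel. For Adamts2 in the left panel cluster 16 is highest and cluster 11 is lowest.

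Set against their substrate, the members together were lower per collagen UMI in both compared libraries. The 5 fibrillar collagen genes summed to 5607 CPM in control fibroblast-like cells, 7256 CPM in the library labelled Tbx1neo2/neo2 and 4872 CPM in the Foxn11089/1089 library. The 10 members together had 397, 291 and 345 UMIs for every 1000 collagen UMIs, a ratio to the control of 0.73 (0.72 to 0.74) and 0.87 (0.86 to 0.88). Serpinh1 gave 18024 of the 29983 member UMIs of the control and so weighs most in this sum. Pcolce had 40.1 UMIs per 1000 in the control and 17.4 and 19.7 in the others, a ratio of 0.43 (0.41 to 0.45) and 0.49 (0.47 to 0.51). P4hb had 61.6, 37.9 and 43.2 and Serpinh1 239, 179.7 and 219. P4ha2 was at 4.32, 5.15 and 8.53, a ratio of 1.19 (1.06 to 1.35) and 1.97 (1.75 to 2.23), and Adamts2 at 3.23, 5.35 and 4.21. Bmp1 had a ratio of 1.11 (1.01 to 1.22) in the library labelled Tbx1neo2/neo2. In the Foxn11089/1089 library Plod2, P4ha1 and Bmp1 also had ratios above 1, at 1.05 (0.99 to 1.11), 1.12 (1.03 to 1.22) and 1.07 (0.97 to 1.18). The denominator was itself uneven. Col1a1 had 2085, 2014 and 1023 CPM and Col1a2 861, 1775 and 1007, so the Foxn11089/1089 library had a log2 ratio of -1.03 for the former and the library labelled Tbx1neo2/neo2 one of 1.04 for the latter.

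**Figure D4:**
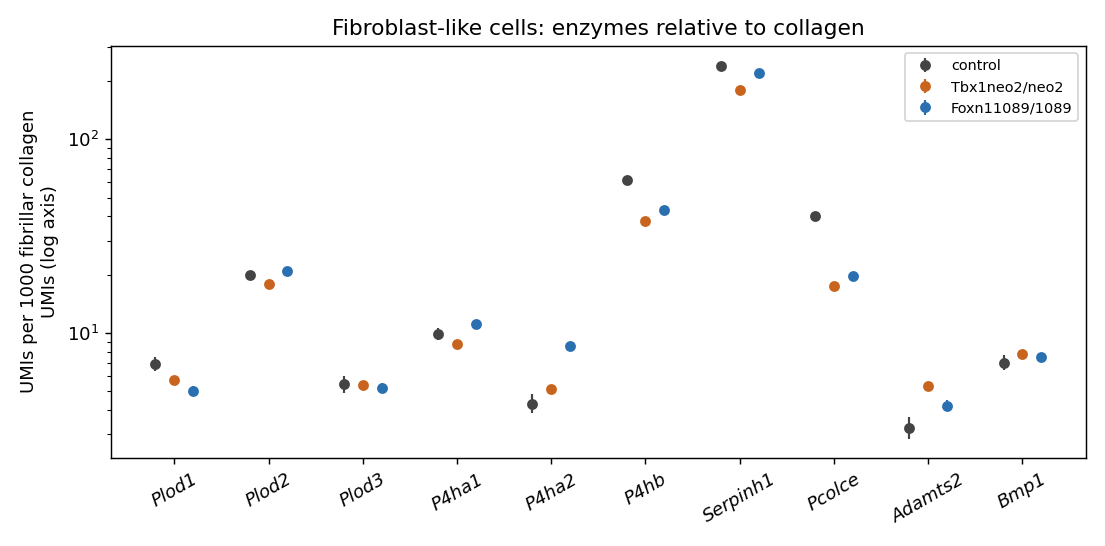
UMIs of each gene per 1000 UMIs of 5 fibrillar collagen genes in fibroblast-like cells (log axis), by library, with Poisson intervals of the member's count. Pcolce, P4hb and Serpinh1 are highest in the control, and P4ha2 is highest in the Foxn11089/1089 library at 8.53.

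Other genes of collagen processing were counted against the shares over all genes given above (39.6% higher and 9.59% lower in the library labelled Tbx1neo2/neo2, 21.9% and 9.96% in the Foxn11089/1089 library). Of 25 listed genes, 22 were measured there and 11 were higher and 2 lower by 1.5-fold, with a median log2 ratio of 0.58 against 0.41 for all genes. In the Foxn11089/1089 library 20 were measured, 2 were higher and 2 lower, with a median of -0.02 against 0.20. Lox, the lysyl oxidase that starts crosslinking outside the cell, had 16.4 CPM in the control, 71.4 in the library labelled Tbx1neo2/neo2 and 21.3 in the Foxn11089/1089 library, log2 ratios of 2.12 (1.92 to 2.32) and 0.38 (0.17 to 0.59). Loxl1 and Loxl3, named after their values were seen, had log2 ratios of 0.88 and 0.61 in the former and -0.24 and -0.12 in the latter. Loxl2 and Loxl4, also on the list, are not given here, so these values do not describe the family. P4ha3, a further prolyl hydroxylase subunit, had 8.62, 23.7 and 9.72 CPM, and P3h2, a prolyl 3-hydroxylase, 5.87, 15.9 and 5.07 CPM. Pcolce2, a relative of Pcolce, had 21, 211 and 58 UMIs, a log2 ratio of 1.72 (1.07 to 2.44) and -0.31 (-1.05 to 0.49). Crtap, the partner of prolyl 3-hydroxylase, was lower in both, at 171, 103 and 87.9 CPM. Fkbp14, a prolyl isomerase, was higher in both, at 25.3, 53.1 and 45.2 CPM, as was Sparc, a collagen-binding glycoprotein, at 535, 1175 and 896.

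The same shares over all genes (39.6% and 9.59%, 21.9% and 9.96%) stand behind the counts of the remaining lists. Of 8 chaperones of the endoplasmic reticulum, 3 were higher and 0 lower by 1.5-fold in the library labelled Tbx1neo2/neo2, and 5 were higher and 1 lower in the Foxn11089/1089 library. Calr, a calcium-binding lectin chaperone, had 267, 1003 and 853 CPM and Hspa5, the BiP chaperone, 278, 712 and 750.2. Of 12 hypoxia-responsive genes, which share with P4ha1, P4ha2 and Plod2 a known response to low oxygen, 5 were higher and 0 lower in the library labelled Tbx1neo2/neo2, and 2 higher and 1 lower of 11 measured in the Foxn11089/1089 library. The glucose transporter Slc2a1 had 9.07, 36.1 and 16.6 CPM. Of 10 heat shock and dissociation-response genes, 2 were higher and 2 lower in each library. Junb, an early response gene, was at 560.5, 218 and 250.5 CPM and Atf3 at 43.8, 7.31 and 28.1, so both were highest in the control. The list did not share that direction. Its median log2 ratio was -0.28 in the library labelled Tbx1neo2/neo2 and 0.38 in the Foxn11089/1089 library, and its highest was 1.23 and 1.57. Their part in the member values was not tested.

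Epithelial-like cells of the library labelled Tbx1neo2/neo2 included 13 cells that went against their class. They had 0 Epcam UMIs and at least 100 UMIs each of Ibsp, a bone matrix sialoprotein, and Col1a1, a rule set after these values were seen, and all 13 sat among the 15 cells that this library gave to the cluster with parathyroid markers (26 and 334 cells in the control and Foxn11089/1089 libraries, none of which met the rule). Gcm2 and Pth, the parathyroid markers, had 0 UMIs in them, and Sp7 and Runx2, transcription factor genes of bone-forming cells, were at 396 and 248 CPM against 0.12 and 1.41 in the other epithelial-like cells of the library. None was a likely doublet, and their median was 37445 UMIs. These 13 cells held 95.6% of the Col1a1 UMIs and 92.5% of the Col1a2 UMIs counted for epithelial-like cells of that library, and 19.3% of the Serpinh1, 24.9% of the P4ha2 and 25.8% of the Pcolce UMIs.

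In these 13 cells 7 of the 10 members had an interval above the level of fibroblast-like cells of the same library, against 12.6% of 13360 genes. That share covers all genes, not genes that go with Col1a1, by which the cells were chosen. The count is therefore a description of the chosen cells only. Serpinh1 reached 7329 CPM (7093 to 7572), 5.62 times (5.43 to 5.81) the fibroblast level, and it ranged from 5838 to 18806 CPM among the 13. P4ha2 was at 762 CPM, a ratio of 20.4 (18.2 to 22.8), and P4ha1 at 711 CPM, a ratio of 11.2 (9.97 to 12.5), and each was found in 13 of 13 cells. P4hb, the third subunit, was at 1030.3 CPM, 3.75 times (3.42 to 4.10) the fibroblast level, and Pcolce at 400.0 CPM, 3.17 times (2.74 to 3.65). Plod1 and Plod2 had ratios of 2.54 (1.89 to 3.34) and 1.73 (1.42 to 2.08). For Plod3, Adamts2 and Bmp1 the interval held 1, with ratios of 1.45 (0.96 to 2.11), 0.99 (0.59 to 1.55) and 1.39 (0.99 to 1.91). Col1a1 was at 34693 CPM, Col1a2 at 31507 and Col3a1 at 299.0, the last 0.10 times the fibroblast level.

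**Figure D5:**
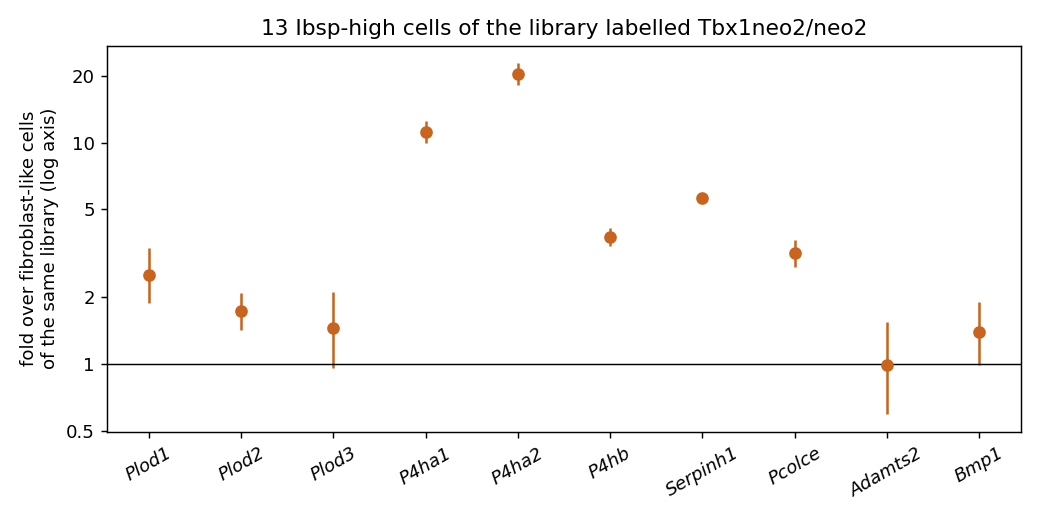
Fold of each gene in the 13 cells with at least 100 Ibsp and Col1a1 UMIs and no Epcam UMI over the fibroblast-like cells of the same library, labelled Tbx1neo2/neo2, with exact 95% counting intervals (log axis). P4ha2 and P4ha1 stand at 20.4 and 11.2, and the intervals of Plod3, Adamts2 and Bmp1 include 1.

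Without those cells, epithelial-like levels of the library labelled Tbx1neo2/neo2 came down to 362 CPM for Serpinh1, 27.2 for P4ha2, 60.9 for P4ha1 and 13.6 for Pcolce, and all 10 members, P4ha1 included at a ratio of 1.04, were then higher in fibroblast-like than in epithelial-like cells in all 3 libraries (35.3% of all genes). The control ratio of P4ha1, 1.06, had an interval that held 1 (0.97 to 1.15), and no interval was computed for the ratio of 1.04. The order of P4ha1 therefore rests on ratios close to 1. With them, 4 members were higher by 1.5-fold than in the control (Plod2, P4ha2, Serpinh1 and Bmp1; 40.3% of all genes) and 0 lower (9.57%), with a median log2 ratio of 0.49 against 0.42 for all genes. Without them 3 were higher (Plod2 at 0.60, P4ha2 at 0.72 and Bmp1 at 1.02; 39.5%), the median was 0.37, Serpinh1 was at 0.48, and Pcolce turned from 0.21 (0.05 to 0.37) to -0.21 (-0.38 to -0.03). The median of the 5 fibrillar collagen genes went from 4.51 to 0.84. A cluster with the thyroid markers Foxe1, Nkx2-1 and Pax8 gave 4, 102 and 6 epithelial-like cells in the 3 libraries. Serpinh1 was at 539 CPM in those 102 cells. In the 4 largest epithelial clusters Serpinh1 was at 255 to 359 CPM in the library labelled Tbx1neo2/neo2, against 111 to 298 CPM in the control. The part of this cell make-up in the pooled ratios was not tested.

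In epithelial-like cells of the Foxn11089/1089 library, Bmp1 was higher (7.17 to 14.2 CPM, log2 ratio 0.98) and Pcolce and P4hb were lower (15.7 to 4.92 CPM and 188 to 119 CPM, log2 ratios of -1.67 and -0.65), against 35.3% and 13.6% of 14826 genes. Hemoglobin and other RBC markers summed to 11942 CPM in these cells against 599 in the control. Pcolce was lower in each of the 4 largest epithelial clusters, at 2.85 to 6.42 CPM against 9.19 to 23.8 CPM in the control. Bmp1 was higher in each of them, at 9.79 to 12.4 CPM against 4.67 to 8.18 CPM, but only by 9.79 against 8.18 CPM in cluster 8. In the cluster with parathyroid markers Bmp1 was at 32.0 against 16.4 CPM, on 334 cells against 26 and on 5 control UMIs. The part of that cluster in the pooled value was not tested.

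Counts were small in the remaining classes. In endothelial-like cells of the library labelled Tbx1neo2/neo2, 4 members were higher (Plod1, Plod2, P4ha2 and Bmp1) and 1 lower (Pcolce) by 1.5-fold, against 41.2% and 11.7% of genes. Adamts2, with 1 UMI in either library, was given no ratio. Bmp1 went from 5 UMIs (6.07 CPM) to 175 (46.9 CPM) there and to 109 (18.4 CPM) in the Foxn11089/1089 library, log2 ratios of 2.95 (1.70 to 4.59) and 1.60 (0.33 to 3.25). P4ha2 was 4.71-fold and 1.57-fold above the control floor of 3 UMIs (3.64 CPM), which is less than the 4.48 CPM that the interval of the control reached. In the Foxn11089/1089 library 2 were higher (P4ha2 and Bmp1) and 2 lower (Plod1 and P4hb), against 30.3% and 11.5%. The 7 mesenchymal markers summed to 1.21, 129 and 104 CPM in these cells, and their part in the values was not tested.

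In mural-like cells of the library labelled Tbx1neo2/neo2, Pcolce went from 267 CPM (53 UMIs) to 126 (900 UMIs), a log2 ratio of -1.09 (-1.49 to -0.66). It was 266 CPM in mural-like cells of the Foxn11089/1089 library, a ratio of -0.01 (-0.45 to 0.46) on 17 control cells. In endothelial-like cells of that library Pcolce was at -0.18 (-1.10 to 0.89), on 11 control UMIs. The lower Pcolce of that library was thus seen in fibroblast-like and epithelial-like cells, while the mural and endothelial intervals held 0. The differences between classes were not tested. Calls in mural-like cells were 4 higher and 1 lower in the library labelled Tbx1neo2/neo2 (37.0% and 17.0% of genes). In the Foxn11089/1089 library they were 2 higher and 1 lower (31.2% and 12.5%). Among these calls only those of Plod2 and Pcolce in the library labelled Tbx1neo2/neo2 had an interval that left out 0.

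Over the 12 combinations of class and library, the genes whose log2 level followed each member most closely were found among 13168 genes. The closest to P4ha2 was Bmpr1a, a BMP receptor (Pearson r 0.990), to Plod2 the kinase gene Limk1 (0.986), to Serpinh1 Cyp20a1 (0.981) and to Pcolce Pi15 (0.972). P4hb was followed by Ahnak (0.943) and by Crtap (0.940), the partner of prolyl 3-hydroxylase. For P4ha1 the closest, Kcnq3, reached 0.881. The 12 points share libraries and depth, and the coefficients describe only these sums.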

How the data were processed

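One library per genotype was analysed, 3 in all. The authors deposited raw UMI counts per gene and cell barcode, made with Cell Ranger 3.0.0 on the mm10 reference; they are not normalised. Barcodes were kept from 200 detected genes upward, the study's own minimum, where mitochondrial transcripts took less than 20% of UMIs; the study's mitochondrial limit is not given in the sources used here. Likely doublets were marked with Scrublet (scanpy 1.11.5) and kept, but clusters in which they made up at least 50% of cells took no class name. The libraries were integrated in Seurat 5.3.0 (R 4.3.3; 2000 variable genes, 30 dimensions) and clustered at resolution 0.8. A cluster took a class name when it raised at least 3 markers of that class to 2 times the median cluster, and when at least 50% of its cells held the defining marker (Pdgfra, Acta2 and Rgs5, Cdh5 or Epcam). A cluster with a typical depth below 1 in 3 of the library median also needed a marker of the class among its top 10 genes. The details of this naming were set after seeing the data.

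UMIs were summed over the cells of a class in each library and divided by the class total (CPM), with exact 95% Poisson intervals; ratios have exact conditional binomial intervals (scipy 1.17.1), and shares of cells have exact Clopper-Pearson intervals. A gene entered the counts over all genes with at least 30 UMIs in the 2 sums compared. A control of 0 UMIs was set to a floor of 3, and no ratio was given where neither library exceeded 3 UMIs. All intervals and floors cover counting error only. The 10 members are named throughout. From each other list up to 4 genes per comparison are named, by the largest absolute log2 ratio among those with at least 100 UMIs. Loxl1 and Loxl3 were named outside that rule. Up to 2 genes per member are named by correlation. The members and lists were chosen with earlier results of these data known. The interval method was tested on simulated counts of 14360 genes for fibroblast-like cells, where 95.1% of intervals held the true ratio. Alternatives were other filters, classes, scalings and weights of cells. The authors' comparisons and the sequencing reads were not used here.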

Additional observations from a re-analysis of the deposited data

Results flagged for a closer look

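In the values below, each pair of classes had log2 ratios to the control of opposite sign, and the number is the first ratio minus the second. The sign is against equal CPM, not against the median gene. In the library labelled Tbx1neo2/neo2 that gene was at 0.41 in fibroblast-like and 0.42 in epithelial-like cells. In the Foxn11089/1089 library it was at 0.20 and 0.30, and Plod2 and Serpinh1 lay below it in both of these classes. With 1 library per genotype each difference was not tested.

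In the library labelled Tbx1neo2/neo2, Serpinh1 was -0.04 in fibroblast-like cells (0.06 with cells gated on marker UMIs) and 0.20 in mural-like cells, a difference of -0.24. Against epithelial-like cells, at 0.77, the difference was -0.81; the epithelial ratio was 0.48 without the 13 Ibsp-high cells. Pcolce was at -0.83 in fibroblast-like, -1.09 in mural-like and -1.25 in endothelial-like cells, whereas it was at 0.21 in epithelial-like cells. The differences from the epithelial ratio were -1.04, -1.30 and -1.46. Without the 13 cells the epithelial ratio of Pcolce was -0.21, so that these classes no longer had opposite signs.

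In the Foxn11089/1089 library, Serpinh1 was at -0.33 in fibroblast-like cells, 0.36 in mural-like cells, -0.12 in endothelial-like cells and 0.20 in epithelial-like cells. The difference was -0.69 between fibroblast-like and mural-like cells and -0.52 between fibroblast-like and epithelial-like cells. It was 0.48 between mural-like and endothelial-like cells and -0.32 between endothelial-like and epithelial-like cells. Plod2 was at -0.13 in fibroblast-like and 0.12 in epithelial-like cells, a difference of -0.25. Plod3 was at -0.26 and 0.42, a difference of -0.68.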

How the results depend on the processing

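Among fibroblast-like cells the lower Pcolce passed 1.5-fold under 12 of 12 alternatives in both comparisons, with log2 ratios of -1.20 to -0.63 in the library labelled Tbx1neo2/neo2 and -1.43 to -0.97 in the Foxn11089/1089 library. In the former library Adamts2 passed in 11 of 12 (0.57 to 1.49) and P4ha2 in 8 of 12 (0.26 to 0.95); P4ha2 in the Foxn11089/1089 library passed in 10 of 12 (0.55 to 0.85). In the library labelled Tbx1neo2/neo2 the 2 members higher became 1 at 2-fold, against the median gene, with cells gated on marker UMIs, with median-of-ratios size factors, with each cell weighing the same, thinned to 2000 UMIs and weighted to control cluster shares. The 1 member lower became 0 at 2-fold and 2 against the median gene and with median-of-ratios size factors. The median of 0.20 became -0.16 with median-of-ratios size factors and 0.065 with control cluster shares. In the Foxn11089/1089 library the 1 member higher became 0 at 2-fold, against the median gene, with gated cells and with median-of-ratios size factors, the 3 lower became 1 at 2-fold, and the median of -0.20 became -0.40 with median-of-ratios size factors. The cause was not tested. Leaving out the chondrogenic-marker cluster, the range of 5000 to 30000 UMIs and leaving out the Ibsp-high cells were chosen after seeing the data. No paired analysis was possible because each genotype had 1 library. Of 120 class levels, 55 moved with cells gated on marker UMIs, 27 with each cell weighing the same and 0 with cells of at least 2000 UMIs. Few control cells, 17 mural-like and 50 endothelial-like, limit those values.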
